A study of Mus musculus with 114 samples.

Results

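Rnpep, Zfp46, Ctps2, Klhl7, Colgalt1, Ubash3b, Zfp280d and Las1l are 8 of the 13101 genes in a count table of ribosome-bound RNA from the mouse prefrontal cortex. They were chosen by their readout, a 24 h rhythm that differed between libraries with a PV_ title and libraries with a C_ title, so that amplitudes and peak times are given for them as a description with no test. In all 8 the fitted peak of PV-titled libraries fell between ZT4.57 and ZT11.8, where ZT is zeitgeber time in hours after lights on. In 7 of the 8 the peak of C-titled libraries fell between ZT12.5 and ZT21.9, and for Ubash3b it fell at ZT1.51. The fitted peaks lay 5.2 to 11.6 h apart. Peaks were fitted for every gene and prefix, also where no rhythm was called. By the edgeR test described below, no rhythm was called in PV-titled libraries for Klhl7, Colgalt1, Ubash3b or Las1l. In C-titled libraries none was called for Zfp280d. The changes over the day were small, with a fitted ratio of peak to trough of 1.18 to 2.39.

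All libraries came from Ribo-tag mice, in which Cre recombinase turns on a tagged ribosomal protein and the ribosomes of marked cells are recovered with an antibody. The labels give no Cre driver, age, strain or lighting, and do not say whether each library is 1 animal, so that p-values measure the spread between libraries. Tissue was taken at 6 times, every 4 h from ZT2 to ZT22, from females and males without any other treatment named. Used here were 55 PV-titled libraries (28 female, 27 male) and 58 C-titled libraries (29 and 29), with 8 to 10 for each title prefix and time. Gene counts per library ranged from 19.1 to 39.5 M (megacounts) with a PV title and from 24.6 to 44.1 M with a C title.

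Titles and cell type entries of the labels name opposite cell types in every library, and grouping here follows the title. Pvalb, which encodes parvalbumin, averaged 38.9 CPM (reads of a gene scaled to a common library total, SD 18.5, n = 55) under the PV title and 1.07 CPM (SD 0.918, n = 58) under the C title, and all 10 markers of pyramidal neurons listed here were higher in C-titled libraries. Markers of glia and vessels were present in both prefixes, and each marker tested for astrocytes (10), oligodendrocytes (6), microglia (8) and vessels (8) was higher in PV-titled libraries. The 10 astrocyte markers summed to a median of 1380 to 1630 CPM over the times under the PV title and 516 to 645 CPM under the C title, and no marker of any list was at 0 in every library. Pyramidal RNA was present under the PV title too. The 10 pyramidal markers there summed to medians of 2710 (ZT14) to 3750 CPM (ZT22). Under the C title they summed to 6460 to 7560 CPM. The 10 parvalbumin cell markers summed to 677 (ZT22) to 923 CPM (ZT6) under the PV title. Under the PV title edgeR called rhythm in 0 of the 10 markers of each list, beside 3.10% of all genes tested. Under the C title it called rhythm in 4 of the 10 pyramidal and 0 of the 10 parvalbumin cell markers, beside 27.0% of all genes tested. Of the other C-titled markers it called 4 of 10 for astrocytes, 1 of 6 for oligodendrocytes, 0 of 8 for microglia and 0 of 8 for vessels. The part of glia, vessels and pyramidal cells in the values of the 8 genes was not tested. In 8 libraries the profile stood apart, with a median correlation to their own prefix of 0.819 to 0.943 against at least 0.899 (PV-titled) and 0.961 (C-titled) in the others. Of these, 5 have a C title and were sampled at ZT2 or ZT6, 3 have a PV title (ZT10, ZT14, ZT22), and the ranges given below include them, while the distances between peaks are given with and without them.

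As background, daily rhythms in mammalian cells are driven by a transcriptional loop in which BMAL1 and CLOCK activate the Per and Cry genes, whose products then repress that activation. Output genes are reached through E-boxes, D-boxes and elements bound by ROR and REV-ERB receptors, and also through signals that vary over the day, such as feeding, temperature and neuronal activity. In cortex, parvalbumin interneurons are fast-firing inhibitory cells that contact the bodies of pyramidal neurons, the excitatory projection cells.

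The sequence before the start of transcription is shown for 4 genes whose RefSeq start lay within 10 bases of an annotated GENCODE start. Rnpep and Ctps2 have the earliest and the latest PV-titled peaks, Zfp46 the largest PV-titled amplitude, and Las1l the most CCAAT boxes. All 8 genes matched RefSeq promoter entries on GRCm38.p6, with 13 windows of 250 bases upstream of a start. Each sequence below runs 5′ to 3′ on the strand of the gene and ends at the base before its start. Capitals mark the GC box (GGGCGG or its reverse complement) and the CCAAT box (CCAAT or its reverse complement).
Rnpep, chr1:135284085-135284334, minus strand: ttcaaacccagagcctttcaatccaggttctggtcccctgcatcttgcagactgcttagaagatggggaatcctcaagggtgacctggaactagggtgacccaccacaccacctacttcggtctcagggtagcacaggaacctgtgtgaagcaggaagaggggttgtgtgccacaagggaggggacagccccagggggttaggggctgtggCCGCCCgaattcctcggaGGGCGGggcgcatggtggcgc
Zfp46, chr4:136285817-136286066, plus strand: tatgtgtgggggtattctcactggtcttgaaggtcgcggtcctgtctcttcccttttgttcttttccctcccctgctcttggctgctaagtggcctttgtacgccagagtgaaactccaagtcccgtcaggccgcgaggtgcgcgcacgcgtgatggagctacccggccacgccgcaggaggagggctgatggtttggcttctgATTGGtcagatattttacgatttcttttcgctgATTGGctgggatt
Ctps2, chrX:162901921-162902170, plus strand: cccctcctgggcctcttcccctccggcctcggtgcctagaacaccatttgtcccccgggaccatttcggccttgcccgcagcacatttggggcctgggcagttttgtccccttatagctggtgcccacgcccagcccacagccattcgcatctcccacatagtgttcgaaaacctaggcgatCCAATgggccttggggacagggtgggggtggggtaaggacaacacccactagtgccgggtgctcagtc
Las1l, chrX:95956904-95957153, minus strand: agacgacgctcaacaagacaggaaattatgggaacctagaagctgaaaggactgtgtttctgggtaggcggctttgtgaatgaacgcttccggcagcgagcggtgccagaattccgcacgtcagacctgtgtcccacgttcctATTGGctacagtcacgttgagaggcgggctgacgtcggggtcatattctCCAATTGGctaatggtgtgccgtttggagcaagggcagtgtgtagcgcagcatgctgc

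None of the 13 windows of the 8 genes held the E-box CACGTG, the cyclic AMP response element TGACGTCA, the D-box forms TTATGTAA and TTACGTAA, or the nuclear receptor element TAGGTCA, each searched on both strands. Among all 32851 windows of the same length these letters were found in 6.02%, 1.55%, 0.819%, 0.113% and 2.23%. The GC box was found in 3 of the 8 genes (32.7% of all windows hold it) and the CCAAT box in 4 of the 8 (33.8% of all windows). A gene was counted if any of its windows held the box, while these shares are of single windows, so the measures are unlike. No motif overlapped another except for 2 CCAAT boxes on opposite strands in the Las1l window, which share letters. The windows printed differ in base composition, with 54.8% G and C before Las1l and 62.4% before Ctps2. These are matches of letters in short windows and say nothing of what binds there.

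**Figure D1:**
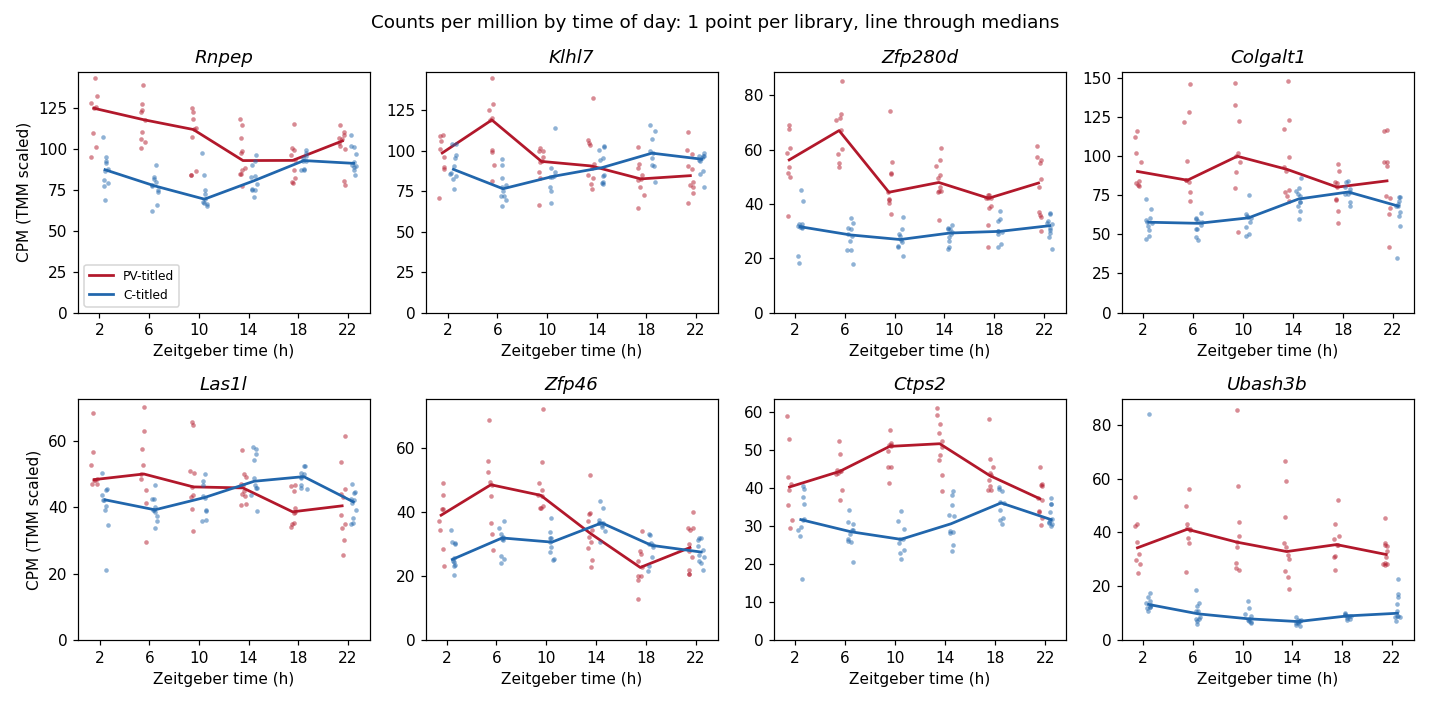
CPM (TMM scaled, vertical axis from 0) against zeitgeber time in hours for the 8 genes. Each point is 1 library (55 PV-titled in red, 58 C-titled in blue) and lines join the medians of each time. The PV-titled median is above the C-titled one at each time for Rnpep (93.1 and 93 CPM at ZT18, where they are closest), Zfp280d, Colgalt1, Ctps2 and Ubash3b, while the lines of Klhl7, Las1l and Zfp46 cross.

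Of the enzymes, Rnpep (ENSMUSG00000041926, GRCm38 chromosome 1, 135262712 to 135284084, minus strand) encodes aminopeptidase B, which removes basic residues from the amino end of peptides. In PV-titled libraries its median fell from 125 CPM at ZT2 (lowest 95, highest 143.2) to 93 CPM at ZT14 (77.5 to 119), with medians of 118, 112, 93.1 and 105 CPM at ZT6, ZT10, ZT18 and ZT22. C-titled libraries were lowest at ZT10, with a median of 69.4 CPM (65.4 to 97.6), and highest at ZT18 with 93 CPM (87 to 99.3), and the medians at ZT2, ZT6, ZT14 and ZT22 were 87.4, 77.5, 80.7 and 91.3 CPM. PV-titled libraries were thus high from ZT2 to ZT10 and C-titled libraries from ZT18 to ZT2, and in both prefixes the libraries of the highest and the lowest time overlapped. The fitted amplitude, the distance from mean to peak on the log2 scale, was 0.19 (SE 0.04) with a peak at ZT4.57 (SE 0.782 h) in PV-titled and 0.19 (SE 0.03) with a peak at ZT20.7 (SE 0.52 h) in C-titled libraries.

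Ctps2 (ENSMUSG00000031360, chromosome X, 162901238 to 163032508, plus strand) encodes CTP synthase 2, which makes the cytidine nucleotide CTP from UTP. PV-titled medians climbed from 40.3 CPM at ZT2 and 44.4 at ZT6 to 51 at ZT10 and 51.7 at ZT14 (lowest 39.3, highest 61.2), and then stood at 43.3 at ZT18 and 37.2 at ZT22 (30.3 to 45.6). C-titled medians were 31.7, 28.5, 26.5, 30.6, 36.1 and 31.7 CPM from ZT2 to ZT22, with a range of 21.4 to 33.9 at ZT10 and of 30.6 to 40.2 at ZT18. It was the latest of the 8 in PV-titled libraries, with a peak at ZT11.8 (SE 0.746 h, amplitude 0.21), and the C-titled peak lay at ZT20 (SE 0.761 h, amplitude 0.19). The groups of the highest and lowest time overlapped in both prefixes, although 8 of 10 PV-titled libraries at ZT14 lay above all of those at ZT22.

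Colgalt1 (ENSMUSG00000034807, chromosome 8, 71610998 to 71624911, plus strand) encodes a galactosyltransferase of the endoplasmic reticulum that glycosylates hydroxylysine in collagens. Its PV-titled medians were 90.1, 84.5, 99.8, 91.4, 80.1 and 84.1 CPM from ZT2 to ZT22, and the libraries spread widely, from 51.3 to 146.6 CPM at ZT10 and from 57.1 to 94.9 at ZT18. The lowest value at ZT10 was in the female library numbered 1, which stood apart, and the next lowest was 79.4 CPM. Without the libraries that stood apart the PV-titled amplitude of Colgalt1 was 0.24 (SE 0.05). None of the 5 steps between neighbours in the order of these medians exceeded the pooled SD within a time of 22.6 CPM. The C-titled profile was tighter, with medians of 57.7, 57, 60.5, 72.5, 77 and 68 CPM, and all 9 libraries at ZT18 (67.8 to 83.7) lay above all 10 at ZT6 (46.6 to 63.3). The fitted peaks were at ZT8.87 (SE 1.1 h, amplitude 0.20, SE 0.06) and ZT16.9 (SE 0.577 h, amplitude 0.24, SE 0.04). The PV-titled amplitude by sex is given further on.

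Klhl7 and Ubash3b encode proteins of ubiquitin and phosphotyrosine signalling. Klhl7 (ENSMUSG00000028986, chromosome 5, 24100605 to 24160792, plus strand) is an adaptor that brings substrates to the ubiquitin ligase built on cullin 3. In PV-titled libraries it stood highest at ZT6, with a median of 119 CPM (lowest 81.5, highest 144.7), and lowest at ZT18, with 82.6 CPM (64.8 to 102). The extremes were reversed in C-titled libraries, with the highest median at ZT18 (98.5 CPM, 80.8 to 116) and the lowest at ZT6 (76.5 CPM, 65.8 to 95). In both prefixes these groups overlapped. The step from ZT6 to the next median, 98.6 CPM at ZT2, was the 1 step of 5 in PV-titled libraries that exceeded the pooled SD of 14.7 CPM, and none did in C-titled libraries. With fitted peaks at ZT6.62 (SE 1.04 h) and ZT19 (SE 0.779 h), 11.6 h apart in all libraries, the amplitudes of Klhl7 were 0.16 and 0.15. That distance was the longest of the 8 over all libraries, but the estimate for Las1l was above that for Klhl7 in 2 parts of the data. These were the first library range alone (10.3 h, SE 2.34 h, against 9.54 h, SE 2.09 h) and males alone (10.7 h, SE 2.66 h, against 10.2 h, SE 2.93 h). In both parts the genes differed by less than these SEs.

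Ubash3b (ENSMUSG00000032020, chromosome 9, 41011098 to 41161697, minus strand) encodes a phosphatase with a ubiquitin-binding domain that acts on tyrosine kinases and the receptors they serve. Its larger wave was in C-titled libraries, where medians were 13.2 CPM at ZT2, 9.69 at ZT6, 7.86 at ZT10, 6.83 at ZT14, 8.94 at ZT18 and 9.92 at ZT22. All 10 libraries at ZT2 (lowest 10.8, highest 84.2) lay above all 10 at ZT14 (5.35 to 8.43). PV-titled medians moved between 41.2 CPM at ZT6 and 31.8 CPM at ZT22, with ranges of 25.3 to 56 and 27.8 to 45.5. The amplitude was 0.63 (SE 0.10) in C-titled and 0.15 (SE 0.08) in PV-titled libraries, with peaks at ZT1.51 (SE 0.592 h) and ZT8.64 (SE 2.02 h).

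The highest C-titled value of Ubash3b, 84.2 CPM in the female library numbered 3 at ZT2, came from a library that stood apart, and the next library at that time had 17.5 CPM. In the same library the astrocyte markers summed to 1270 CPM, the highest of the C-titled libraries, while the microglial markers summed to 81.5 CPM within the range of 44 to 102 CPM of that prefix. The highest PV-titled Ubash3b values, 85.7 CPM at ZT10 and 66.7 CPM at ZT14, were also in libraries that stood apart, with the highest astrocyte sums of their prefix, 2370 and 2640 CPM. The next highest PV-titled sum, 2340 CPM, was in the female library numbered 1 at ZT22, where Ubash3b stood at 36.1 CPM. At ZT6 the C-titled library with the highest sum of that time had 7.71 CPM of Ubash3b. The highest C-titled Ubash3b value of ZT6, 18.6 CPM, was in the female library numbered 3, with a sum of 804 CPM. In the C-titled male library numbered 1 at ZT22 both were the highest of that time, at 1080 and 22.7 CPM. The same held in the C-titled female library numbered 1 at ZT10 (705 and 14.6 CPM) and at ZT14 (664 and 8.43 CPM). At ZT18 the highest C-titled sum, 879 CPM, went with 8.97 CPM of Ubash3b, and the highest Ubash3b value, 9.87 CPM, with a sum of 516 CPM. Whether the astrocyte RNA bears on Ubash3b was not tested. Without the 8 libraries that stood apart the C-titled amplitude was 0.43 (SE 0.06), with a peak at ZT1.04, and the PV-titled amplitude was 0.10 (SE 0.07).

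The other 3 genes encode nuclear proteins. Las1l (ENSMUSG00000057421, chromosome X, 95935335 to 95956962, minus strand) encodes a subunit of the complex that cuts the second internal spacer out of ribosomal precursor RNA. PV-titled medians were 48.3, 50, 46.1, 45.8, 38.6 and 40.4 CPM from ZT2 to ZT22, and C-titled medians were 42.2, 39.2, 42.9, 47.8, 49.2 and 41.6 CPM. At ZT6 the PV-titled libraries ranged from 29.6 to 70.1 and the C-titled from 33.7 to 46.8, and at ZT18 they ranged from 34.1 to 46.6 and from 45.5 to 52.5, so that the order of the prefixes turned between these times. None of the 5 steps exceeded the pooled SD in either prefix (8.94 and 5.34 CPM). The fitted peaks lay at ZT6.79 (SE 1.11 h) and ZT15.7 (SE 0.774 h), at amplitudes of 0.19 and 0.18.

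Zfp46 (ENSMUSG00000051351, chromosome 4, 136284683 to 136293942, plus strand) encodes a zinc finger protein and had the largest PV-titled amplitude of the 8. Its PV-titled median was 48.4 CPM at ZT6 (lowest 28.1, highest 68.7) and 22.6 CPM at ZT18 (12.8 to 33.9), a ratio of 2.14, with 38.9, 45.1, 33.2 and 28.8 CPM at ZT2, ZT10, ZT14 and ZT22. C-titled libraries were highest at ZT14, at 36.5 CPM (30.7 to 43.2), and stood between 25.1 and 31.8 CPM in the median at the other times. At ZT18 the PV-titled median was thus the lower of the prefixes, and at ZT6 the higher. The amplitude was 0.51 (SE 0.07) with a peak at ZT7.29 (SE 0.514 h) in PV-titled and 0.19 (SE 0.04) with a peak at ZT12.5 (SE 0.788 h) in C-titled libraries, and the distance of 5.2 h between the peaks was the smallest of the 8.

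Zfp280d (ENSMUSG00000038535, chromosome 9, 72274860 to 72363777, plus strand) encodes another zinc finger protein. In PV-titled libraries all 9 values at ZT6 (median 67 CPM, 53.7 to 85.2) lay above all 9 at ZT18 (42.1 CPM, 24.2 to 43.4), and the other medians were 56.2, 44.3, 47.9 and 47.7 CPM at ZT2, ZT10, ZT14 and ZT22. C-titled medians varied only between 26.9 CPM at ZT10 (20.7 to 35.1) and 32 CPM at ZT22 (23.4 to 36.7), within a pooled SD of 5.02 CPM for each single step. The amplitude was 0.30 (SE 0.05) against 0.12 (SE 0.04), and the peaks stood at ZT5.82 (SE 0.668 h) and ZT21.9 (SE 1.38 h).

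**Figure D2:**
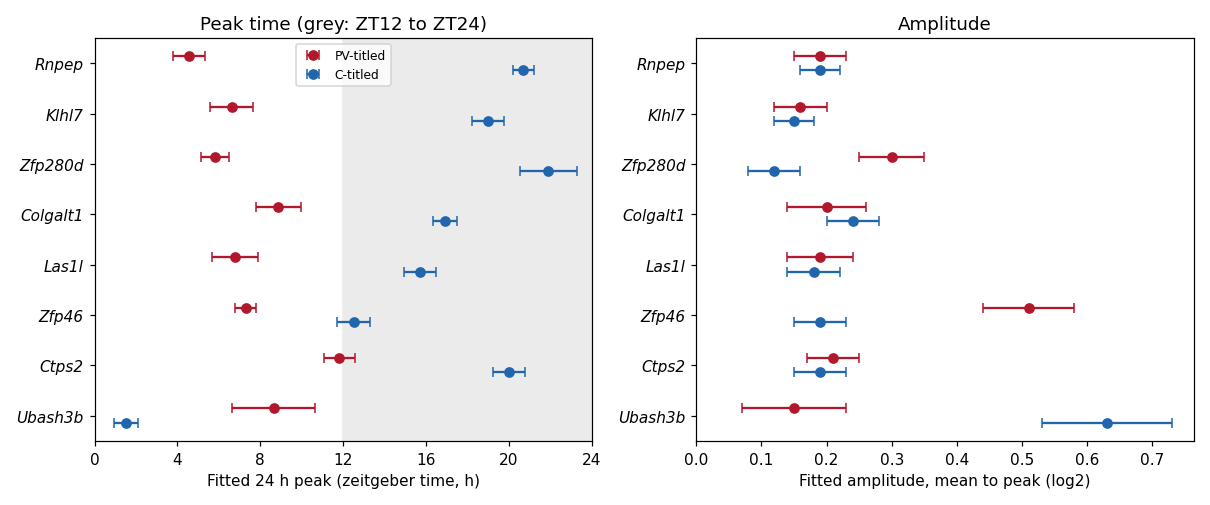
Fitted peak in zeitgeber hours (left, grey from ZT12 to ZT24) and fitted amplitude from mean to peak in log2 (right) for the 8 genes, PV-titled in red and C-titled in blue, with bars of 1 SE. The red peaks lie between ZT4.57 and ZT11.8, and 7 of the blue peaks lie in the grey part.

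The rhythm difference that chose these genes was called by edgeR's quasi-likelihood test, at a Benjamini-Hochberg adjusted p below 0.05, in 73 of 13053 genes (0.559%), and the 8 genes held ranks between 1 and 13 among them. Other genes within those ranks included Egfl8, Rbm3, Sars and Rbm45. Las1l at rank 13 had a difference wave (the amplitude of the difference between the fitted curves) of 0.33, and Dcaf6 at rank 14, just outside, had one of 1.46. Over all genes tested the median of this amplitude was 0.129. A PV-titled peak before ZT12 with a C-titled peak after ZT12 was found in 15 of the 73 genes, 7 of them members, whereas 47 had the opposite arrangement. Rhythm within PV-titled libraries was called in 4 of the 8 genes, against 3.10% of all genes tested, and within C-titled libraries in 7 of the 8, against 27.0%, and nothing is read from these shares since the choice rests on them.

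**Figure D3:**
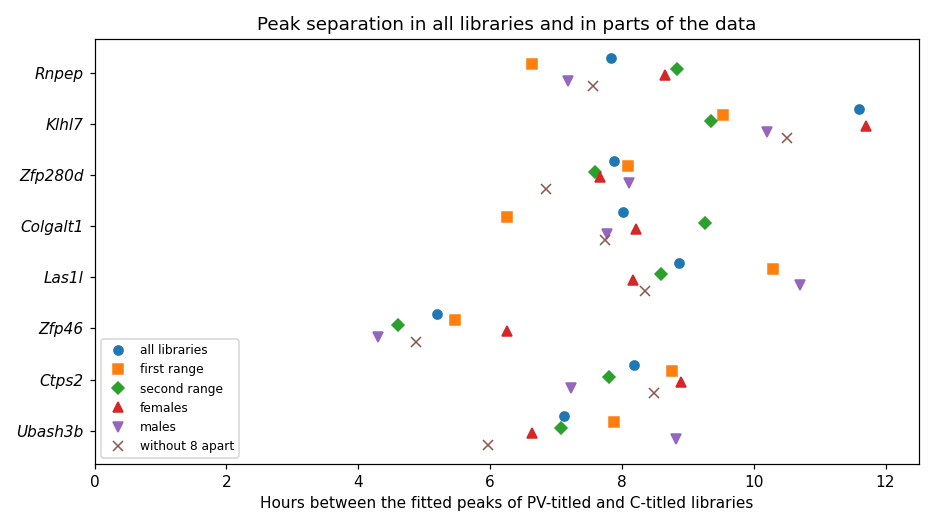
Hours between the fitted peaks of PV-titled and C-titled libraries (horizontal axis) for each gene, in all libraries used, in each range of library numbers, in each sex, and without the 8 libraries that stood apart. Every estimate lies between 4.3 h (Zfp46, males) and 11.7 h (Klhl7, females). SEs are not drawn, and they reached 4.37 h (Ubash3b, males).

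Each title carries a library number, and these form a lower and a higher range, the nearest to a batch that the labels give. In the first and the second range, fitted alone, the peaks lay 6.63 and 8.84 h apart for Rnpep, 5.47 and 4.6 h for Zfp46, 8.76 and 7.8 h for Ctps2, and 9.54 and 9.35 h for Klhl7. The direction of the Klhl7 distance differed between ranges, with its PV-titled peak at ZT8.88 (SE 1.57 h) in the first range, ahead of the C-titled peak of that range, and at ZT4.77 (SE 1.07 h) in the second, behind it by the shorter way round; the difference between ranges was not tested. For Colgalt1 they lay 6.26 and 9.26 h apart, for Ubash3b 7.88 and 7.07 h, for Zfp280d 8.09 and 7.59 h, and for Las1l 10.3 and 8.6 h. SEs of these distances reached 3.83 h (Zfp280d, first range). Of the 8 genes, none passed in the first range alone, where edgeR called 0 of all genes, and Rnpep and Colgalt1 passed in the second. Without the 8 libraries that stood apart, edgeR called 18 genes in all, the 8 genes were among them, and their peaks lay 4.88 (Zfp46) to 10.5 h (Klhl7) apart. In females alone 4 genes were called, with Zfp46, Ctps2 and Colgalt1 among them, and in males alone 1 gene was called and none of the 8. Leaving out replicate 3 kept Rnpep, Zfp46 and Ctps2 among 5 genes called. Since the 8 genes were chosen by this contrast in the same libraries, their counts among the calls are a description and no test.

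For comparison, rhythm of the core clock genes was called by edgeR in 12 of 19 under the PV title and 17 of 19 under the C title, and the rhythm differed between prefixes in 1 of the 19, Dbp, a D-box activator (adjusted p = 0.0352). Dbp peaked at ZT13.5 (amplitude 0.64) in PV-titled and at ZT15 (amplitude 0.76) in C-titled libraries. Per3, a period gene with the next smallest p, had an adjusted p of 0.0873 by edgeR and was not called rhythmic in either prefix.

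The level over all times was not used in the choice and was tested. Of the 8 genes 6 were higher in PV-titled libraries and 0 were lower (edgeR, and likewise 6 by DESeq2), beside 87.5% of all genes tested that differed in level, 44.3% being higher under the PV title and 43.2% under the C title. A count of 6 of 8 differing is thus near the background. The median log2 difference was 0.412 over the 8 genes and 0.00835 over all genes tested. In bulk pull-downs a smaller number of cells of a type and less RNA per cell cannot be told apart.

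The widest level difference was that of Ubash3b, 3.68-fold (log2 1.88, SE 0.104, edgeR adjusted p = 6.21e-34) between 37.7 ± 11.8 CPM (SD, n = 55) under the PV title and 11.4 ± 10.4 CPM (n = 58) under the C title. Each of the 55 PV-titled values exceeded the C-titled median. Zfp280d stood at 50.4 ± 12.6 against 29.5 ± 5.13 CPM, 1.69-fold higher (log2 0.76, SE 0.0568, edgeR adjusted p = 2.26e-24), with 54 of 55 values above that median. For Ctps2 the levels were 44.8 ± 7.73 and 31.1 ± 5.35 CPM (1.44-fold, edgeR adjusted p = 6.79e-20), and for Colgalt1 92.2 ± 23.5 and 64.3 ± 10.9 CPM (1.42-fold, edgeR adjusted p = 7.1e-15). No C-titled library lay above the PV-titled median for Zfp280d, Ctps2 or Colgalt1.

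Smaller differences were found for Rnpep, at 105 ± 16.7 against 84.5 ± 11.2 CPM (1.25-fold, edgeR adjusted p = 1.04e-12), and Zfp46, at 36.2 ± 12.4 against 30 ± 5.11 CPM (1.18-fold, edgeR adjusted p = 0.000334). Klhl7 did not pass, at 94 ± 16.9 against 89.2 ± 11.5 CPM (log2 0.0761, SE 0.043, edgeR adjusted p = 0.0893), nor did Las1l, at 46.2 ± 9.71 against 43.5 ± 6.61 CPM (log2 0.085, SE 0.0497, edgeR adjusted p = 0.101). Klhl7 passed in the second library range alone (log2 0.13, adjusted p = 0.0458) and without replicate 2 (0.12, adjusted p = 0.0167), and Las1l passed without replicate 1 (0.14, adjusted p = 0.0228), all by edgeR. Per length, on the scale of CPM per kilobase of exons, the level in PV-titled libraries was highest for Klhl7 (23.7 ± 4.27), followed by Colgalt1 (21.3 ± 5.43), Rnpep (15 ± 2.4), Ctps2 (9.48 ± 1.64), Zfp46 (6.94 ± 2.39), Las1l (5.68 ± 1.19), Ubash3b (5.14 ± 1.62) and Zfp280d (2.65 ± 0.663). In this order Klhl7 and Colgalt1 differed by less than their SDs, as did Las1l and Ubash3b.

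**Figure D4:**
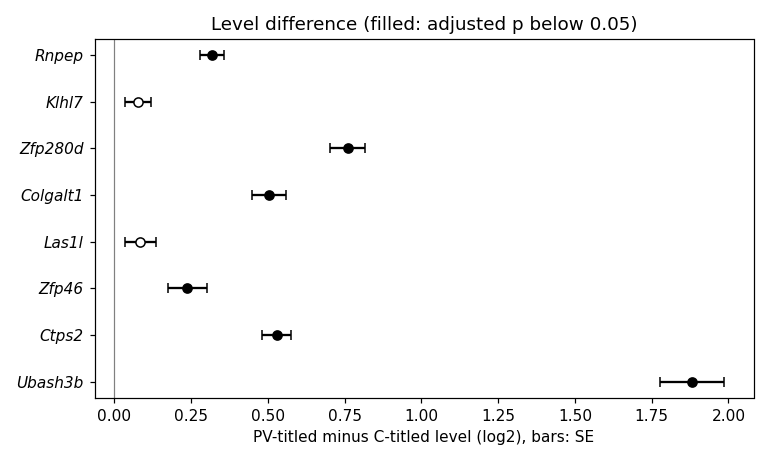
Level of PV-titled minus C-titled libraries on the log2 scale for the 8 genes, with bars of 1 SE from the edgeR fit over all libraries used. Filled points passed an adjusted p of 0.05, and the open points are Klhl7 (0.0761) and Las1l (0.085).

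Sex was also independent of the choice. No member differed between males and females in either prefix (edgeR, 0 of 8 in each, also 0 by DESeq2), where 0.0307% of all genes tested differed under the PV title and 0.184% under the C title. At an unadjusted p below 0.05, reached by 2.77% of all genes tested under the PV title and 7.61% under the C title, there were 2 members in PV-titled libraries, Klhl7 (log2 0.126 of males over females) and Zfp280d (0.161), and 4 in C-titled libraries, Rnpep (-0.077), Zfp46 (-0.123), Colgalt1 (-0.103) and Ubash3b (-0.28). Male levels were nominally above female levels for 7 of 8 genes under the PV title and for 2 of 8 under the C title, and none of these differences passed.

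The rhythm did not differ detectably between the sexes. By edgeR 0 of 8 members, and 0% of all genes tested, showed a sex difference of the 24 h rhythm in PV-titled libraries, and again 0% in C-titled libraries, with 5.42% and 1.34% of genes at an unadjusted p below 0.05 and 1 and 0 genes called by DESeq2. The member with the smallest adjusted p was Colgalt1 in PV-titled libraries (edgeR, 0.894), where the amplitude was 0.34 (SE 0.09) in females and 0.07 (SE 0.07) in males. Female Colgalt1 means in PV-titled libraries stood at 105 CPM at ZT10 and 71.6 at ZT18, and male means at 99.9 and 84.9 CPM. In C-titled libraries the Colgalt1 amplitude was 0.27 in females and 0.21 in males.

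A 12 h component beyond the 24 h wave was called in 0% of all genes tested under the PV title and 0% under the C title (edgeR, with 8.23% and 1.14% of genes at an unadjusted p below 0.05, and 0 and 1 genes by DESeq2). No member passed, nor had any an unadjusted p below 0.05, in either prefix. Member amplitudes of this component ranged from 0.0292 to 0.114 in PV-titled and from 0.0126 (Rnpep) to 0.152 (Ubash3b) in C-titled libraries.

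Of 8 listed nearest relatives or partners, 7 were tested, and the rhythm difference was called in 0 by edgeR and 0 by DESeq2, with 3 at an unadjusted p below 0.05. Zfp280c, a paralogue of Zfp280d, was rhythmic in PV-titled libraries with a peak at ZT6.42 (amplitude 0.34, edgeR adjusted p = 0.0128), near the ZT5.82 of Zfp280d, and its fitted C-titled peak was at ZT7.09 (amplitude 0.16, adjusted p = 0.229). Zfp280b was rhythmic in C-titled libraries, with a peak at ZT16 (edgeR adjusted p = 0.0189), as was Rnpepl1, the closest relative of Rnpep, with a peak at ZT11.7 (adjusted p = 0.0441). Ctps, the other CTP synthase, had amplitudes of 0.11 and 0.03, neither called by edgeR (adjusted p = 0.543 and 0.766), and was lower in PV-titled libraries (log2 -0.70), opposite to Ctps2. Colgalt2 (amplitudes 0.07 and 0.19), Klhl42 (0.24 and 0.02) and Nol9, the partner of Las1l (0.13 and 0.10), did not pass in either prefix by edgeR. In C-titled libraries edgeR called rhythm in 2 of the 7 relatives or partners and DESeq2 in 3, beside 27.0% of all genes by edgeR.

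In the wider lists for each gene's pathway edgeR called the rhythm difference in none of the genes, at 0 of 10 aminopeptidases, 14 pyrimidine synthesis genes, 27 cullin 3 adaptors and core genes, 13 collagen-modifying enzymes, 8 partners of Ubash3b, 16 zinc finger relatives and 20 genes of large-subunit ribosome assembly. At an unadjusted p below 0.05 the counts were 2, 2, 8, 1, 0, 3 and 3 in that order, beside 13.5% of all genes tested, and DESeq2 called 1, among the cullin 3 genes. The smallest edgeR p there was that of Klhl9, an adaptor of cullin 3 that acts in cell division, with a difference wave of 1.1 (adjusted p = 0.0544), peaking at ZT4.28 in C-titled libraries. Klhl21 followed, with an adjusted p of 0.109.

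Rhythm within C-titled libraries was called by edgeR in 5 of 10 aminopeptidases, 5 of 14 pyrimidine synthesis genes, 7 of 27 cullin 3 genes, 4 of 13 collagen-modifying enzymes, 0 of 8 Ubash3b partners, 3 of 16 zinc finger relatives and 6 of 20 ribosome assembly genes, beside the 27.0% of all genes. The unadjusted count for Ubash3b partners was 0 as well, and so was that of DESeq2. Among the pyrimidine genes, Cad, the enzyme of the first steps of the pathway, peaked at ZT13.9 (amplitude 0.32, edgeR adjusted p = 8.39e-07) and Dhodh, of the fourth step, at ZT12.8 (amplitude 0.25, adjusted p = 5.87e-05). The other genes of that list that were called were Umps (ZT21.9, adjusted p = 0.038), Cmpk1 (ZT4.19, adjusted p = 0.00762) and Dctd (ZT14.8, adjusted p = 0.0133). Of these 5 all but Dctd were named after their values were seen. The collagen prolyl hydroxylase P4ha1, also named after its values were seen, peaked at ZT18.8 under the PV title and ZT19.6 under the C title (edgeR adjusted p = 0.00103 and 4.42e-05).

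Within PV-titled libraries rhythm was called by edgeR in 1 of 13 collagen-modifying enzymes (P4ha1), 1 of 8 Ubash3b partners (Cd2ap, an adaptor protein of endocytosis named after its values were seen, with a peak at ZT6.33) and 1 of 16 zinc finger relatives (Zfp280c). The aminopeptidase, pyrimidine, cullin 3 and ribosome assembly lists had 0, with 0, 2, 4 and 2 genes at an unadjusted p below 0.05 and 0, 1, 0 and 0 called by DESeq2.

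Likeness of profile was measured as Pearson's r over the 12 means of prefix and time, on log2 values centred within each prefix, among 13052 other genes. It is a description over 12 points that share libraries and scaling. Rnpep was most like Gm26642 (r = 0.931) and Gm9833 (0.92), Zfp46 most like Mettl26 (0.92) and Rad18 (0.917), and Ctps2 most like Ppil4 (0.888) and Srsf10 (0.862). Klhl7 had Zic4 (0.949) and Nrbp2 (0.89) next to it, Ubash3b had Paip2 (0.873) among its nearest, and Las1l had Coro1b (0.945) and Rsrp1 (0.919). Colgalt1 had another member, Las1l, as its nearest gene (0.913) and then Tmpo (0.876). Zfp280d had Fbxo8 (0.953) and BC065403 (0.923).

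For both Rnpep and Zfp280d a nearest gene lies on the other strand of the same locus. Gm26642 overlaps 368 exon bases of Rnpep (5.3% of its exons) and stood at 16.3 and 18.6 CPM under the PV and the C title, with fitted peaks at ZT2.54 and ZT20.5. BC065403 overlaps 746 bases of Zfp280d (3.9%) and stood at 7.65 and 4.78 CPM, with fitted peaks at ZT6.07 and ZT21.4. Since the sources do not say that reads were counted by strand, reads of each pair in the overlap cannot be told apart. Colgalt1 also overlaps a gene on the other strand, Unc13a (495 bases, 11.4%), and reads of this pair in the overlap cannot be told apart either. Unc13a stood at 281.5 and 225.9 CPM with fitted peaks at ZT1.35 and ZT8.02, and its profile had an r of -0.508 with that of Colgalt1.

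Among the members themselves, profiles of Colgalt1 and Las1l (r = 0.913), Klhl7 and Zfp280d (0.866), and Rnpep and Zfp280d (0.801) ran closest over the 12 means. Ubash3b stood apart, with r between -0.379 (Las1l) and 0.303 (Zfp280d).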

How the data were processed

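RNA bound to tagged ribosomes was pulled down with an antibody against haemagglutinin, and cDNA and libraries were made with SMART-seq HT and Nextera Flex, per the labels' protocols. The authors deposited whole-number counts per gene, made with FastQC and HTSeq on GRCm38, per the submitters' processing notes, which also name DESeq2. The aligner is not given in the sources used here, nor is the annotation or the strand setting. Of 114 libraries 113 were used, and 1 column whose sex differs from the title it would fit was left out. The row of reads assigned to no gene (medians by time of 59.8 to 62.4% in PV-titled and 52.6 to 53.3% in C-titled libraries) was kept out of library sizes.

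Counts were tested with edgeR 4.0.16 (TMM scaling, filterByExpr, quasi-likelihood F test, R 4.3.3) over all genes, with Benjamini-Hochberg adjustment and a threshold of 0.05. Time entered as cosine and sine of 24 h (as a factor for levels), with sex and library range as terms. DESeq2 1.42.0, other scaling, no filter, ranges, sexes, a replicate block and libraries left out were alternatives. Named were all members, listed relatives, at most 2 genes per list with the smallest p in the rhythm difference, and 2 most alike per member, plus genes said in the text to be named after their values were seen, with some names not reported here. Members and lists were chosen with earlier results of these data known. Symbols matched 13051 of 13101 identifiers in GENCODE vM21. No library in 212 pairs within a group was a copy of another. The tests were also run on simulated data with changes set in advance. Those data had the same spread setting for every gene, and equal prefix levels for all but the set genes. They held no libraries that stood apart, so nothing is concluded here from that run. Reads carry no molecular identifiers, so precision is read from the spread between libraries.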

Additional observations from a re-analysis of the deposited data

Results flagged for a closer look

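In 96 groups of 1 gene, prefix and time, 9 held a library far from the others of its group, and chance flags about 1 in 20 groups. Of these 9 values, 3 were in libraries that stood apart.

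Among PV-titled libraries, the male library numbered 4 at ZT10 was the highest of 9 for both Zfp46 (72.1 CPM, the next at 55.6) and Zfp280d (74.2 CPM, the next at 55.5). At ZT18 the male library numbered 5 was highest for Ctps2 (58.3 CPM, the next at 47.7), and at ZT2 the male library numbered 4 was highest for Las1l (68.3 CPM, the next at 56.5). Ubash3b stood at 45.5 CPM in the male library numbered 2 at ZT22, which stood apart, with the next at 36.1.

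Among C-titled libraries, the female library numbered 3 at ZT2, which stood apart, was the highest of 10 for Ubash3b (84.2 CPM, the next at 17.5) and the lowest for Las1l (20.9 CPM, the next at 34.7). Klhl7 was highest in the female library numbered 2 at ZT10 (114 CPM, the next at 89.1), and Colgalt1 was lowest in the male library numbered 1 at ZT22 (35 CPM, the next at 55.5).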

How the results depend on the processing

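Over the refits 18 peak times of the 8 genes moved by more than their SE. The amplitude of Colgalt1 in PV-titled libraries, 0.20 (SE 0.06) in all, was 0.34 in females and 0.07 in males, and that of Ubash3b in C-titled libraries, 0.63 (SE 0.10), was 0.82 and 0.42 by library range. Level differences kept their direction, and 3 refits, of Klhl7 and Las1l, brought a call, as given with the levels. The share of genes with a rhythm difference between prefixes (0.559%) was the least stable. It was 0.184% with a replicate block, 0% in the first library range alone, 0.0153% in the second, 0.138% without the libraries that stood apart (a choice made after seeing the data), 1.2% with DESeq2, and 0.0383% to 0.329% with 1 replicate number left out. The members among them were 0 in the first range, 2 in the second, and 3 to 8 with a replicate left out, the fewest without replicate 3, and 3 in females alone and 0 in males alone. As the members were chosen by this contrast in the same libraries, these counts only describe them. Rhythm in PV-titled libraries (3.10% of genes, 4 members) was called in 0.153% and 1 member in the first range, and in 0.307% and 2 members in the second. Without the libraries that stood apart it was called in 7 members. The share of all genes in that refit is not given here, and nothing is read from the count, since the choice rests on these rhythms. With a replicate left out, rhythm in PV-titled libraries was called in 0.728% to 2.61% and 2 to 5 members. In C-titled libraries (27.0%, 7 members) it was called in 2.9% and 2 members in the first range, in 10.2% in the second, and in 15.1% to 23.9% with a replicate left out. Sex differences of level were called in 0.0153% in PV-titled libraries of the first range (0.0307% in all). In C-titled libraries (0.184% in all) the share was 0.0537% and 0.0307% by range, 0.698% without the libraries that stood apart, 0.299% with DESeq2, and 0.0614% to 0.161% with a replicate left out. DESeq2 called 0.00768% for the 12 h component in C-titled libraries and 0.00766% for the sex difference of rhythm in PV-titled libraries, where the replicate block also gave 0.00766%. Fewer libraries enter the fits within a range or after leaving some out, and the cause of the other shifts was not tested. Replicate numbers were not taken to pair libraries across prefixes, since the labels do not say so. Of 52 pairs of the same number, time and sex, 26 had a correlation of deviations over 0.1 (median 0.0942). As a hint from the data that numbers may be shared, 18 PV-titled libraries of these pairs correlated best with their own number. The count to be met by chance was not computed, and the main tests treat libraries of both prefixes as independent.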
